A study of Mus musculus with 12 samples.

Results

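Cytochrome P450 genes encode haem enzymes that insert an oxygen atom into small molecules. They were chosen by symbol, as every gene whose name is Cyp followed by a family number, a subfamily letter and a gene number, and 93 of the 50600 gene identifiers in the read count tables met this rule. The enzymes make and break down steroid hormones, bile acids, vitamin D and retinoic acid, and they clear drugs, pollutants and fatty acids. In the thymus, medullary epithelial cells (mTECs) are known for transcribing many genes that otherwise mark single tissues, some of them under the control of the nuclear protein Aire. In humans without working AIRE, P450 enzymes of the adrenal and the liver are known targets of autoantibodies.

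RNA sequencing of polyA RNA was done on 6 libraries of mTEC hi, primary medullary epithelial cells with high MHC class II, and 6 libraries of mTEC lo, which have low MHC class II. The mice were 6 to 8 weeks old and carried B6.B6CB-Psmb11tm1Smta (Psmb11-/-) or the same strain designation with (Psmb11+/+), called Psmb11-deficient and WT below. Psmb11 encodes a proteasome subunit known from cortical thymic epithelial cells, and the labels name no cell type to which the deletion is limited. In each cell type 2 libraries were Psmb11-deficient and 2 were WT in every label. The other 2 carried a title that names the other genotype than the source name and strain, and these 4 libraries entered only the comparison of cell types. The labels do not say whether the libraries came from separate animals or from pooled animals, so the p-values describe only library-to-library spread, possibly technical.

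The libraries held between 38791960 and 86793594 reads assigned to genes. Levels are given as CPM, a gene's reads relative to its library's total as scaled by TMM, within 1 gene, and as TPM, which accounts for transcript length, between genes. Of 7 mature mTEC markers 7 were higher in mTEC hi, among them Aire with 1979 ± 186 CPM in mTEC hi, where mTEC lo had 17.6 ± 5.35 CPM (SD, n = 6 each), and 6 of 6 immature mTEC markers were lower. Markers of other cells moved too. Of 6 B cell markers 6 were higher, with a summed level of 69.1 to 73.6 CPM in mTEC hi, against 11.5 to 17.7 CPM in mTEC lo. Of 6 dendritic cell and macrophage markers 6 were higher, with 129 to 140 CPM in mTEC hi, against 34.7 to 43.4 CPM in mTEC lo. Of 7 thymocyte markers 5 were higher, with 49.7 to 130 CPM in mTEC hi, against 17.9 to 55.0 CPM in mTEC lo. Of 6 tuft cell markers 6 were lower, with 274 to 404 CPM in mTEC hi, against 1262 to 1938 CPM in mTEC lo. The 3 epithelial markers summed to 2550 to 2839 CPM in mTEC hi, against 3464 to 3871 CPM in mTEC lo. Of 6 tested hepatocyte genes 5 were higher, with 102 to 121 CPM in mTEC hi, against 4.16 to 8.67 CPM in mTEC lo. Of 6 fibroblast and pericyte markers 3 were higher and 3 lower, with a sum of 189 to 210 CPM in mTEC hi, against 172 to 249 CPM in mTEC lo; Pdgfrb, a pericyte receptor, had 57.4 CPM on average in mTEC hi, against 5.10 CPM in mTEC lo, and Dcn, a fibroblast proteoglycan, had 39.8 CPM in mTEC hi, against 182 CPM in mTEC lo. Of 5 endothelial markers 3 were lower and 2 did not pass (1 higher and 2 lower with RLE size factors), with 38.9 to 57.4 CPM in mTEC hi, against 41.2 to 64.1 CPM in mTEC lo. Of 4 cortical epithelial markers 1 was higher and 2 were lower (1 lower with library size alone as the scale), with 145 to 180 CPM in mTEC hi, against 293 to 383 CPM in mTEC lo. No marker on these lists was at 0 in all libraries of a cell type, and their part in the P450 results was not tested.

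The P450 family was read more broadly and more strongly in mTEC hi. Summed over the 93 genes, P450 transcripts came to 1019 ± 65.2 TPM in mTEC hi and 528 ± 33.3 TPM in mTEC lo (SD, n = 6 each), with libraries between 914 and 1103 TPM in mTEC hi and between 483 and 569 TPM in mTEC lo. At least 5 reads were found for 91.2 ± 1.33 of the 93 genes per mTEC hi library and for 52.3 ± 3.27 per mTEC lo library. Every one of the 93 genes had reads in mTEC hi, whereas 9 had none in the 6 mTEC lo libraries. The same counts over all genes are not given here. Low genes as a whole leaned the same way, since all tested genes averaging under 5 CPM had a median log2 fold change of 1.35. In bulk libraries, fewer cells of a type and less RNA per cell cannot be told apart.

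A few genes carried most of the sum. The 3 most abundant genes held 52.1% of it in mTEC hi and 56.5% in mTEC lo, while 36 genes of mTEC hi and 68 of mTEC lo stayed under 1 TPM on average. In mTEC hi the order by mean TPM began with Cyp2a5 (388), Cyp26a1 (82.6), Cyp4f16 (61.0), Cyp2f2 (54.4), Cyp2g1 (51.6), Cyp2b19 (46.6), Cyp27a1 (31.9) and Cyp1a2 (30.6). In mTEC lo it began with Cyp2f2 (180 TPM), Cyp2a5 (84.4), Cyp1b1 (33.2), Cyp2g1 (26.8), Cyp4f13 (23.97), Cyp2b19 (22.3), Cyp4f16 (20.5) and Cyp7b1 (15.1). Between libraries of mTEC hi, the 64 members with at least 1 CPM there had a median coefficient of variation of 14.1%. These members ran from 2.94% for Cyp4f16 to 46.1% for Cyp2c55. The median was 8.33% for all genes with at least 1 CPM, a set not matched to the members for level. In mTEC hi the libraries' ranges of Cyp4f16, Cyp2f2, Cyp2g1 and Cyp2b19 overlapped, as did those of Cyp27a1 and Cyp1a2, so the order within these sets is not fixed by these data. In mTEC lo the ranges of Cyp2g1, Cyp4f13, Cyp2b19 and Cyp4f16 overlapped, Cyp1b1 overlapped Cyp2g1 and Cyp2b19, and Cyp7b1 overlapped Cyp2b19.

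**Figure D1:**
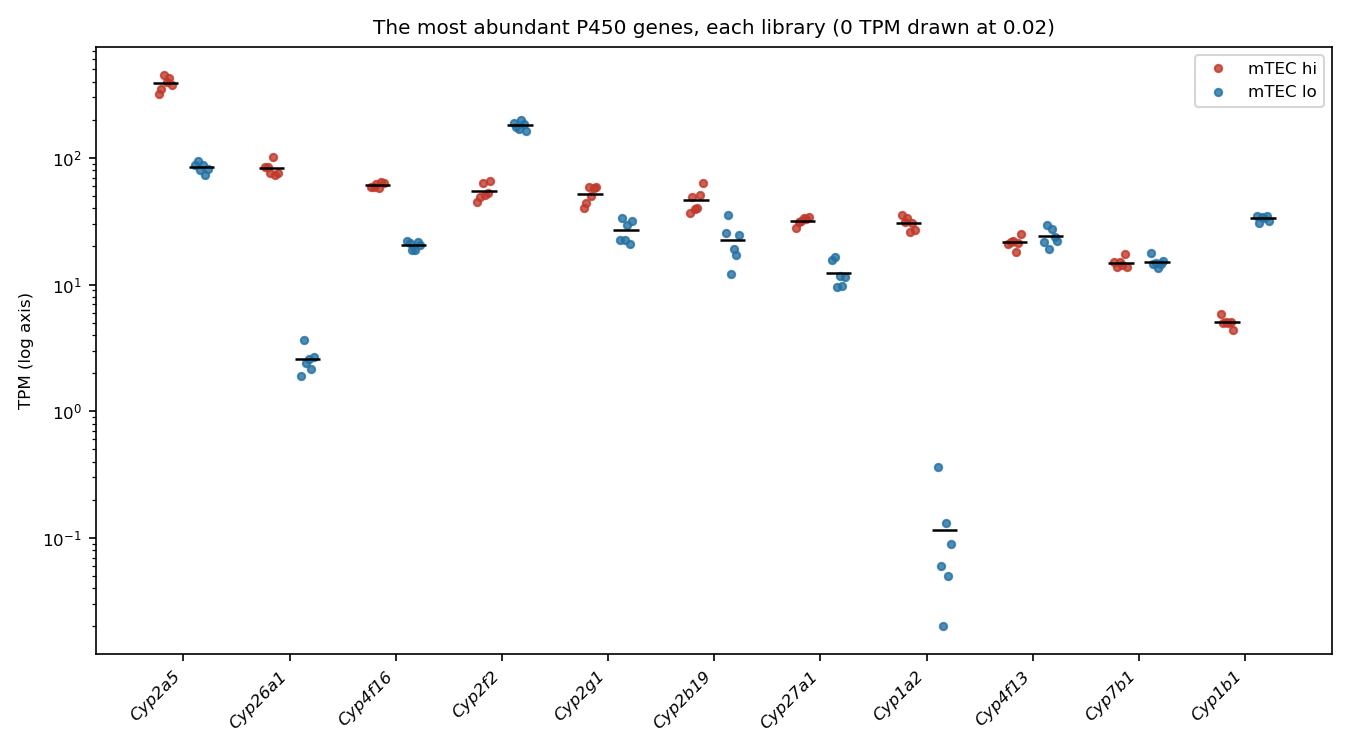
Level in TPM (log axis) of the 11 P450 genes that were among the 8 most abundant in mTEC hi or in mTEC lo. Each point is 1 library, mTEC hi left of mTEC lo, and the line is the mean; Cyp2a5 leads in mTEC hi with a mean of 388 TPM, and Cyp2f2 leads in mTEC lo with 180 TPM.

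Of the 93 genes, 82 passed the read filter and were tested between cell types. With edgeR's quasi-likelihood test at an adjusted p under 0.05, 66 were higher in mTEC hi, 11 were lower and 5 did not pass, where 44.2% of the 23923 genes tested were higher and 38% lower. That background is high, and the same shares apply to the counts by role below. On the mTEC lo libraries alone, 43 of the 82 genes would not have passed the read filter, since fewer than 6 reached its level. Such genes are said here to have passed the filter only through mTEC hi. Passing this way favours a higher call, though Cyp2j8, 1 of the 43, did not pass the test. The counts over all tested members are therefore a description. Among the 25 members that averaged 5 CPM or more over all libraries, 15 were higher and 10 were lower in mTEC hi, where 30.3% and 57% of the 13175 genes at that level were. Of the 15, Cyp1a2 and Cyp4f14 also passed the read filter only through mTEC hi. The median log2 fold change of these 25 was 0.61, against -0.26 for all genes at that level. The 11 members that were not tested, 6 of subfamily 2c among them, had 27 to 149 reads over the mTEC hi libraries and 0 to 5 reads over the mTEC lo libraries. Changes were large: 44 members were at least 8-fold higher in mTEC hi, as were 18% of all genes tested, and 59 were at least 2-fold higher, as were 33.5% of all genes; 4 were at least 2-fold lower, as were 12.6% of all genes. With library size alone as the scale, 69 members were higher and 8 lower in mTEC hi, beside 12907 higher and 6347 lower over all genes in place of 10569 and 9080, and the median of all genes was 0.37 in place of 0.08 on the log2 scale.

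**Figure D2:**
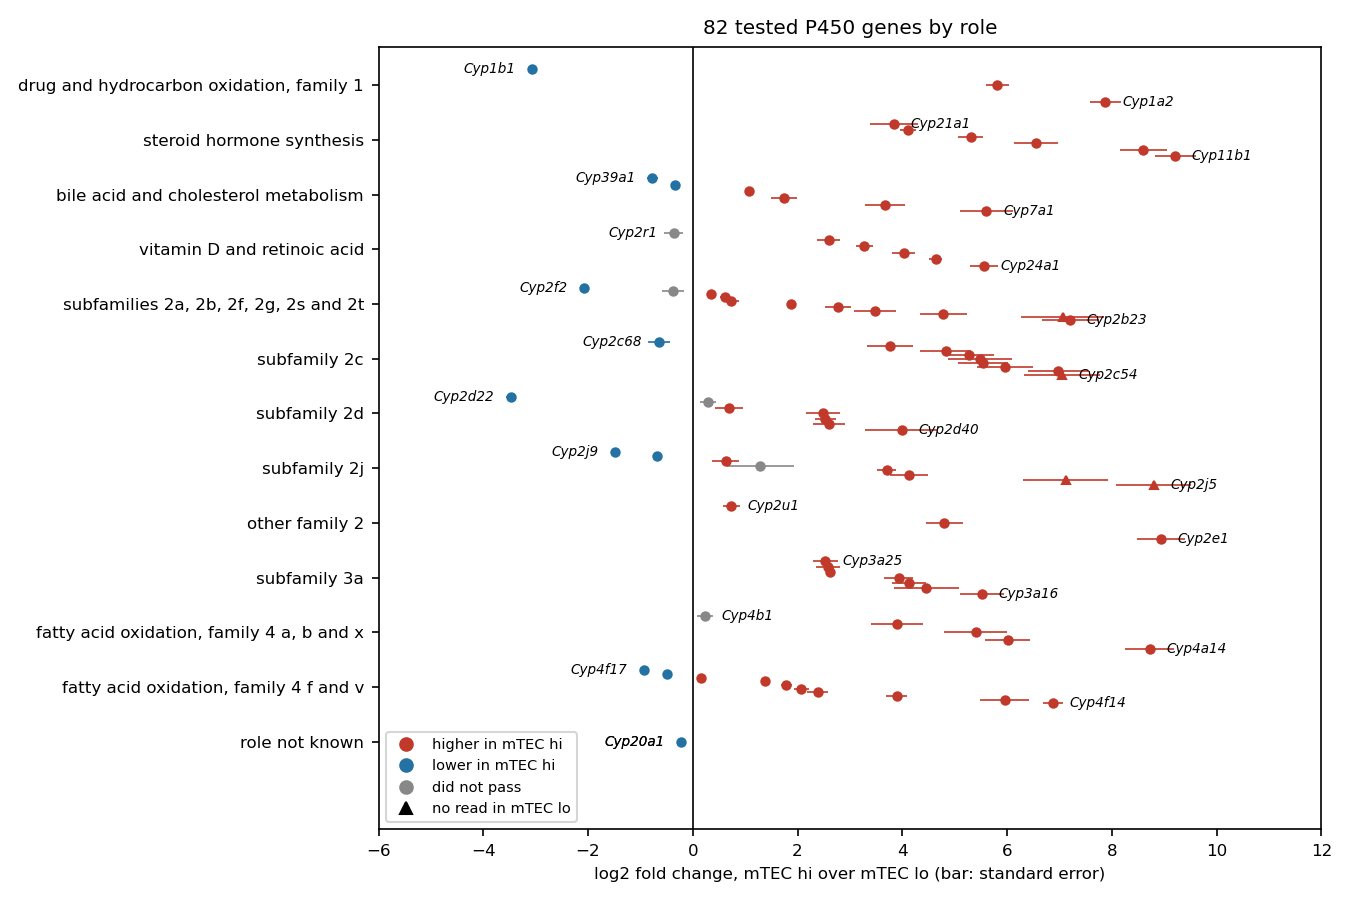
Log2 fold change of mTEC hi over mTEC lo for the 82 tested P450 genes, in rows by role, with the standard error as a bar; red genes were higher in mTEC hi, blue genes lower and grey genes did not pass, and triangles had no read in mTEC lo. The lowest and highest gene of each row are named, and Cyp2d22 at -3.48 and Cyp1b1 at -3.07 lie furthest to the left.

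The first family of P450 enzymes oxidises aromatic compounds, and its genes are the textbook targets of the aryl hydrocarbon receptor, which binds the core GCGTG of the xenobiotic response element. Its 3 genes split. The promoters below, from 250 bases before to 50 bases after the RefSeq start of transcription on GRCm38.p6, are shown because the genes share this receptor and moved in opposite directions. In Cyp1a1 and Cyp1b1 the capitals mark the core, which reads CACGC on the other strand, and in Cyp1a2, which has no such core in this window, they mark the TATA box TATAAA.
Cyp1a1, chr9:57697363-57697662, plus strand: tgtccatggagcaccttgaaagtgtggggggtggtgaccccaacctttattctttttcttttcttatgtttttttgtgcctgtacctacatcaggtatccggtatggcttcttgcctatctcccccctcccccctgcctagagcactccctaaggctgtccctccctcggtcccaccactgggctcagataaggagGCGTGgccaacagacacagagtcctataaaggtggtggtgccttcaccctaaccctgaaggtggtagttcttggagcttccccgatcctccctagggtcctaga
Cyp1a2, chr9:57683606-57683905, minus strand: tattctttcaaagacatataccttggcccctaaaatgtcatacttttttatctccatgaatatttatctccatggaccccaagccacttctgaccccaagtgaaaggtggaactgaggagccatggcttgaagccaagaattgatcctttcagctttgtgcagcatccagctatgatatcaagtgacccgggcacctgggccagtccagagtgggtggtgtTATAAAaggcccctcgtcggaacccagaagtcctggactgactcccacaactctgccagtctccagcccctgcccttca
Cyp1b1, chr17:79715012-79715311, minus strand: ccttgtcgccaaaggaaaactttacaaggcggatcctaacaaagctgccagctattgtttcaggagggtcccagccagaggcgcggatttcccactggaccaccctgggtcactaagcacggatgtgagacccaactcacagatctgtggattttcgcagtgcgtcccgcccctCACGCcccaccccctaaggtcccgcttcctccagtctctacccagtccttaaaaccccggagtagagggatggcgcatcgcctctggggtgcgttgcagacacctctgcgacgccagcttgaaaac

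Cyp1a2, which oxidises caffeine and aromatic amines, had 26.4 to 37.6 CPM in mTEC hi, with a median of 31.5, against 0 to 0.497 CPM in mTEC lo, with a median of 0.0526. No mTEC lo library came near the mTEC hi libraries, and the log2 fold change was 7.88 ± 0.30 (SE; edgeR adjusted p = 1.05e-13). Cyp1a1, its close relative on the same chromosome, had 5.90 to 7.85 CPM in mTEC hi, against 0.0516 to 0.200 CPM in mTEC lo, with a log2 fold change of 5.81 ± 0.22. Both Cyp1a2 and Cyp1a1 passed the read filter only through mTEC hi. Cyp1b1, which hydroxylates oestrogens and hydrocarbons, went the other way, with 13.6 to 18.6 CPM in mTEC hi (median 15.5), against 111 to 147 CPM in mTEC lo (median 131). All 6 mTEC hi libraries lay below all 6 mTEC lo libraries, and the log2 fold change was -3.07 ± 0.07 (edgeR adjusted p = 1.49e-16). In TPM the family summed to 39.9 ± 3.91 in mTEC hi and 33.4 ± 1.66 in mTEC lo, led by Cyp1a2 in mTEC hi and by Cyp1b1 in mTEC lo. The receptor gene Ahr itself had a log2 fold change of -1.56 ± 0.06, with 7.16 ± 0.53 CPM in mTEC hi, against 21.1 ± 1.62 CPM in mTEC lo. Its repressor Ahrr had 3.10 ± 0.23 CPM in mTEC hi, against 0.0810 ± 0.0576 CPM in mTEC lo, a log2 fold change of 5.22 ± 0.33.

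All 6 genes of steroid hormone synthesis were higher in mTEC hi, and their sum was 34.7 ± 2.77 TPM in mTEC hi and 1.38 ± 0.59 TPM in mTEC lo. Cyp11a1, the side-chain cleavage enzyme that starts the pathway from cholesterol, was the most abundant, with 23.6 to 29.8 CPM in mTEC hi, against 0.898 to 2.30 CPM in mTEC lo; the log2 fold change was 4.11 ± 0.15 (edgeR adjusted p = 8.04e-14). Cyp17a1, the hydroxylase and lyase on the way to androgens, had 7.78 to 9.97 CPM in mTEC hi, against 0.0907 to 0.471 CPM in mTEC lo. Cyp19a1, the aromatase that makes oestrogens, had 2.76 to 3.37 CPM in mTEC hi, against 0 to 0.143 CPM in mTEC lo. The groups did not overlap for any of these genes, and 5 of the 6 passed the read filter only through mTEC hi. The share of all genes without overlap is not given here, but 82.1% of all genes tested were called in either direction.

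Cyp11b1 and Cyp11b2 make the last steps of corticosterone and aldosterone in the adrenal cortex. Cyp11b1 had 1151 reads in the 6 mTEC hi libraries and 1 read in the 6 mTEC lo libraries, a ratio of 1020 after scaling by depth, with an exact 95% interval of 183 to 40336 that covers counting error only. Cyp11b2 had 757 reads in mTEC hi and 1 read in mTEC lo, a ratio of 671 (120 to 26540). The pair is close in sequence: 18.1% of the 50-base words of Cyp11b1 and 19.1% of those of Cyp11b2 occur in another gene, and how the counting split such reads is not given in the sources used. Cyp21a1, needed for both hormones, had 0.546 to 0.970 CPM in mTEC hi, against 0 to 0.145 CPM in mTEC lo, a log2 fold change of 3.85 ± 0.46, and shares 23.8% of its words, mostly with its pseudogene.

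Of 12 partner genes of the pathway 10 were higher and 2 lower in mTEC hi, where 44.2% and 38% of all genes tested were. Of the 10, 8 passed the read filter only through mTEC hi, which favours a higher call. Hsd17b3, which makes testosterone, had 7.92 ± 1.04 CPM in mTEC hi, against 0.0236 ± 0.0212 CPM in mTEC lo, with a log2 fold change of 8.30 ± 0.26. Star, which brings cholesterol to the mitochondrion, had 19.5 ± 1.59 CPM in mTEC hi, against 5.51 ± 0.74 CPM in mTEC lo, and is named here after its value was seen. The largest fall was that of Srd5a1, a reductase that acts on testosterone, with 5.94 ± 0.58 CPM in mTEC hi, against 24.5 ± 4.98 CPM in mTEC lo (log2 fold change -2.03 ± 0.10).

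Among 6 genes of bile acid and cholesterol metabolism, 4 were higher and 2 lower in mTEC hi, where 44.2% and 38% of all genes tested were. Of the 4, Cyp7a1 and Cyp8b1 passed the read filter only through mTEC hi. Cyp27a1, the mitochondrial sterol hydroxylase of the alternative bile acid pathway, was the most abundant, with 26.5 to 28.5 CPM in mTEC hi, against 11.01 to 15.4 CPM in mTEC lo, a log2 fold change of 1.08 ± 0.07 (edgeR adjusted p = 4.06e-10). Cyp8b1, which sets the share of cholic acid, had 1.58 to 3.19 CPM in mTEC hi, against 0.0179 to 0.417 CPM in mTEC lo, a log2 fold change of 3.67 ± 0.39. Cyp7a1, the rate-limiting enzyme of the classical pathway, stayed rare, with 218 reads in mTEC hi and 3 in mTEC lo, a ratio of 64.4 (exact 95% interval 21.8 to 315). Cyp46a1, the cholesterol hydroxylase of the brain, had 1.49 to 3.37 CPM in mTEC hi, against 0.454 to 0.854 CPM in mTEC lo. Cyp39a1 and Cyp7b1, which act on oxysterols, fell. Cyp39a1 had 6.06 to 8.40 CPM in mTEC hi, against 10.5 to 14.9 CPM in mTEC lo (log2 fold change -0.77 ± 0.10), and Cyp7b1 had 16.7 to 20.6 CPM in mTEC hi, against 21.3 to 27.1 CPM in mTEC lo (-0.33 ± 0.06). With library size alone as the scale Cyp7b1 had -0.05 and no longer passed. Of 7 tested bile acid partners 5 were higher and 2 lower, near the shares of all genes given above for so small a list. Of the 5, 4 passed the read filter only through mTEC hi, Baat among them. Baat, which joins bile acids to amino acids, had 5.06 ± 0.77 CPM in mTEC hi, against 0.0864 ± 0.0557 CPM in mTEC lo (log2 fold change 5.86 ± 0.26). Amacr, a racemase of bile acid side chains, had 8.11 ± 0.51 CPM in mTEC hi, against 14.6 ± 1.32 CPM in mTEC lo (-0.84 ± 0.08).

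Of the 6 P450 genes of retinoic acid and vitamin D, 5 were higher in mTEC hi, and the 6 had a sum of 95.6 ± 10.3 TPM in mTEC hi and 4.60 ± 0.83 TPM in mTEC lo. Of the 5, Cyp24a1 and Cyp26c1 passed the read filter only through mTEC hi, which favours a higher call. Cyp26a1, which degrades retinoic acid and is the classical gene induced by it, made up most of the TPM sum. Its promoter, over the same window as above, is shown because it holds the response element by which retinoic acid receptors are known to bind, in capitals; on the other strand these bases read AGTTCA, 5 others and AGTTCA again.
Cyp26a1, chr19:37697558-37697857, plus strand: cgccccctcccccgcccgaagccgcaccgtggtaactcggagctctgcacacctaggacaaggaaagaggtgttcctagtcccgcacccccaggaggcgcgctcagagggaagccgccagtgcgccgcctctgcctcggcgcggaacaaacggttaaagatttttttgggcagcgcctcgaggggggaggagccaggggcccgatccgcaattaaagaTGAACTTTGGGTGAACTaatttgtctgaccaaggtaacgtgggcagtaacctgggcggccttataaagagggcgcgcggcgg

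On either strand, this motif was found in 8 of 32851 promoter windows of that length, in 0.0296% of 27025 genes, and among the 72 of 93 P450 genes matched to a RefSeq promoter only Cyp26a1 held it. The search used this 1 spelling, which is that of Cyp26a1, and other spellings of the element were not searched. Its rarity and its match in Cyp26a1 therefore describe the letters chosen. The level of Cyp26a1 was 76.9 to 105 CPM in mTEC hi, with a median of 83.8, against 2.53 to 4.82 CPM in mTEC lo, with a median of 3.20. The groups were far apart, at a log2 fold change of 4.64 ± 0.12 (edgeR adjusted p = 1.01e-15). The other retinoic acid hydroxylases rose as well: Cyp26b1 had 10.2 to 13.1 CPM in mTEC hi, against 0.898 to 1.95 CPM in mTEC lo, and Cyp26c1 had 4.86 to 6.59 CPM in mTEC hi, against 0.109 to 0.546 CPM in mTEC lo.

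Of 11 partner genes of the retinoic acid pathway 8 were higher and 3 lower in mTEC hi, where 44.2% and 38% of all genes tested were. Lrat, which stores retinol as esters, had 42.9 ± 1.85 CPM in mTEC hi, against 0.389 ± 0.169 CPM in mTEC lo, a log2 fold change of 6.78 ± 0.14. Of the receptors, Rarb, itself a known target of retinoic acid, had 2.90 ± 0.20 CPM in mTEC hi, against 10.2 ± 0.87 CPM in mTEC lo (-1.81 ± 0.09). Cyp26a1 and Rarb thus moved in opposite directions in the same libraries.

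For vitamin D, Cyp24a1, the enzyme that inactivates the hormone, had 4.40 to 5.32 CPM in mTEC hi, against 0.0516 to 0.272 CPM in mTEC lo, a log2 fold change of 5.56 ± 0.27 (edgeR adjusted p = 3.13e-12). Cyp27b1, which makes the hormone, had 2.65 to 4.36 CPM in mTEC hi, against 0.294 to 0.869 CPM in mTEC lo. Cyp2r1, which carries out the step before it in the liver, had 0.785 to 1.05 CPM in mTEC hi, against 0.965 to 1.52 CPM in mTEC lo, and did not pass (log2 fold change -0.36 ± 0.18, edgeR adjusted p = 0.0791). The receptor genes of the list as a whole, which hold nuclear receptors and liver factors, split into 10 higher, 9 lower and 3 not passed of 22 tested. Of the 10, 6 passed the read filter only through mTEC hi, Nr0b2 among them. Over all genes tested 44.2% were higher and 38% lower. The largest rise on the receptor list was that of Nr0b2, a repressor of bile acid synthesis, with 1.91 ± 0.23 CPM in mTEC hi, against 0.00302 ± 0.00741 CPM in mTEC lo.

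The subfamilies 2a, 2b, 2f, 2g, 2s and 2t lie side by side on chromosome 7 and held the most abundant P450 transcripts, 555 ± 63.6 TPM in mTEC hi and 320 ± 23.0 TPM in mTEC lo. Of 11 tested genes 9 were higher in mTEC hi, 1 was lower and 1, Cyp2t4, did not pass. Of the 9, 4 passed the read filter only through mTEC hi. Cyp2a5, which hydroxylates coumarin and is known from liver and nasal mucosa, and Cyp2a4, a steroid hydroxylase, are a near-identical pair that shares 37.0% and 38.8% of their 50-base words with other genes. Their promoters are shown because the genes differ widely in level while these windows differ at 5 of 299 aligned bases, 98.3% identity; the capitals mark the differing bases.
Cyp2a5, chr7:26835089-26835387, plus strand: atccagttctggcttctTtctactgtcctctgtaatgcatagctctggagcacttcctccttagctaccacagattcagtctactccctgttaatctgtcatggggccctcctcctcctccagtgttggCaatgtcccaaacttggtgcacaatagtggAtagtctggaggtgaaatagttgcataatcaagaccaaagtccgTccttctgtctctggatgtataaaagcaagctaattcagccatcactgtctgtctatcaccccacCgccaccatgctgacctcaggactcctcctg
Cyp2a4, chr7:26306943-26307241, plus strand: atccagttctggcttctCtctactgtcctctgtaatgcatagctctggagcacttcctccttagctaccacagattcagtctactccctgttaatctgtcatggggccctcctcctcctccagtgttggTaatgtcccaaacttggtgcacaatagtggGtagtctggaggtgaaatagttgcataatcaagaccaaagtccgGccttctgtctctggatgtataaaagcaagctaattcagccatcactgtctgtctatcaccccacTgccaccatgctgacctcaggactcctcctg

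Cyp2a5 had 334 to 482 CPM in mTEC hi, with a median of 396, against 97.6 to 117 CPM in mTEC lo, with a median of 111. It was the most abundant P450 transcript of mTEC hi and rose 3.66-fold there (log2 fold change 1.87 ± 0.08, edgeR adjusted p = 6.58e-13). Cyp2a4 had 1.47 ± 0.43 TPM in mTEC hi, against 388 ± 49.2 TPM for Cyp2a5, and in CPM it had 0.833 to 1.91 in mTEC hi and 0 to 0.113 in mTEC lo. Reads that either copy could give make the low level of Cyp2a4 uncertain.

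Cyp2f2, which activates naphthalene in the club cells of the airway, was the 1 gene of the array that fell, with 34.9 to 48.7 CPM in mTEC hi (median 40.3), against 151 to 186 CPM in mTEC lo (median 176). The groups were well apart, at a log2 fold change of -2.07 ± 0.08 (edgeR adjusted p = 2.23e-13). Its exons overlap those of an antisense gene over 13.5% of their length, and the counts used ignore the strand, so reads of both genes cannot be told apart there. Cyp2g1, known from the olfactory mucosa, had 47.1 to 68.0 CPM in mTEC hi, against 31.8 to 45.9 CPM in mTEC lo, a log2 fold change of 0.61 ± 0.09. Cyp2b19, known from differentiating keratinocytes, had 42.1 to 66.0 CPM in mTEC hi, against 19.3 to 44.8 CPM in mTEC lo; its groups overlapped, at a log2 fold change of 0.73 ± 0.14. Cyp2b23 was rare, with 439 reads in mTEC hi and 2 in mTEC lo, a ratio of 195 (exact 95% interval 53.5 to 1612). Cyp2b9 had 100 reads in mTEC hi and none in mTEC lo, which makes it at least 29.5-fold higher, taking 3 reads over the 6 mTEC lo libraries as the floor.

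Subfamily 2c, arachidonic acid and drug oxidases of the liver, was low throughout, with a sum of 9.53 ± 1.62 TPM in mTEC hi and 1.81 ± 0.57 TPM in mTEC lo. Of its 15 genes 9 could be tested, and 8 of those rose in mTEC hi while 1 fell; the 8 passed the read filter only through mTEC hi. Cyp2c37 had 0.613 to 1.31 CPM in mTEC hi, against 0 to 0.0621 CPM in mTEC lo, a log2 fold change of 5.95 ± 0.54. Cyp2c68 was the exception, with 0.527 to 1.19 CPM in mTEC hi, against 1.14 to 1.63 CPM in mTEC lo; its groups overlapped, at -0.65 ± 0.21 (edgeR adjusted p = 0.00872). It lost its call with library size alone as the scale (-0.37) and without the 4 libraries of title number 1 (-0.43). It shares 43.3% of its 50-base words with other genes, chiefly Cyp2c40, and how reads common to both were counted is not given in the sources used. Cyp2c54, without a read in mTEC lo, rose at least 30.4-fold by the same floor. Cyp2c66, at least 44.0-fold higher, Cyp2c69, at least 21.9-fold, and Cyp2c38, at least 17.7-fold, had no read in mTEC lo either and did not pass the read filter. For Cyp2c40 no bound is given: it had 85 reads in mTEC hi and none in mTEC lo, but RSEM, which divides shared reads between genes, gave it 0.567 TPM in mTEC hi, against 0.065 TPM in mTEC lo.

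Subfamily 2d, drug oxidases, was the 1 group whose sum was lower in mTEC hi, 9.96 ± 1.38 TPM against 12.6 ± 0.63 TPM in mTEC lo, with ranges that did not overlap. Most of the mTEC lo sum was Cyp2d22, regarded as the mouse gene closest to human CYP2D6 in function, which had 1.85 to 2.56 CPM in mTEC hi (median 1.96), against 20.8 to 23.9 CPM in mTEC lo (median 23.4). The groups were widely apart, and its log2 fold change of -3.48 ± 0.09 was the largest fall of the family (edgeR adjusted p = 8.09e-16). Its neighbours went up: 5 of the 7 tested genes were higher, such as Cyp2d10 with 0.611 to 1.40 CPM in mTEC hi, against 0.107 to 0.311 CPM in mTEC lo, while Cyp2d12 did not pass. Of the 5, 3 passed the read filter only through mTEC hi, Cyp2d10 among them. Cyp2d34, 1 of the 5, lost its call in 5 of 12 fits that left out 1 library (highest edgeR adjusted p 0.0542). Cyp2d11, which was not tested, had 37 reads in mTEC hi and none in mTEC lo, at least 10.9-fold higher.

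Subfamily 2j makes epoxides of arachidonic acid and had sums that overlapped, 34.3 ± 2.72 TPM in mTEC hi and 30.7 ± 1.47 TPM in mTEC lo, while its genes split into 5 higher, 2 lower and 1 not passed. Of the 5, 3 passed the read filter only through mTEC hi. Cyp2j11, 1 of the 5, had a log2 fold change of 0.63 (edgeR adjusted p = 0.0371) and lost its call in 8 of 12 fits that left out 1 library (highest edgeR adjusted p 0.101) and in both fits with a replicate block (highest 0.058). Cyp2j13 rose, with 16.8 to 21.4 CPM in mTEC hi, against 0.843 to 1.96 CPM in mTEC lo, and so did Cyp2j12, with 1.01 to 1.74 CPM in mTEC hi, against 0 to 0.138 CPM in mTEC lo (log2 fold change 4.12 ± 0.37). Cyp2j9 fell, with 7.23 to 9.78 CPM in mTEC hi, against 22.9 to 24.5 CPM in mTEC lo (-1.48 ± 0.08, edgeR adjusted p = 1.23e-11), and Cyp2j6 fell by 0.68 on the log2 scale. Cyp2j5, known from kidney and liver, had 347 reads in mTEC hi and none in mTEC lo, at least 103-fold higher, and Cyp2j7 had 111 reads in mTEC hi and none in mTEC lo, at least 32.8-fold higher. Among the other members of the second family, Cyp2e1, which oxidises ethanol, had 1.48 to 3.23 CPM in mTEC hi; it had 927 reads there and 1 in mTEC lo, a ratio of 822 (exact 95% interval 147 to 32493). RSEM gave a smaller ratio for it, 99.7, from 2.33 TPM in mTEC hi, against 0.0233 TPM in mTEC lo.

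All 7 genes of subfamily 3a, the main drug oxidases of liver and gut, were higher in mTEC hi, with a sum of 24.04 ± 3.08 TPM in mTEC hi and 2.42 ± 0.24 TPM in mTEC lo. Cyp3a13 was the most abundant, with 21.5 to 29.0 CPM in mTEC hi, against 3.75 to 4.47 CPM in mTEC lo (log2 fold change 2.63 ± 0.08, edgeR adjusted p = 9.27e-15). Cyp3a11, a chief drug oxidase of adult liver, had 2.25 to 4.32 CPM in mTEC hi, against 0.0932 to 0.528 CPM in mTEC lo. Cyp3a16, known from fetal liver, had the largest rise, with 2.38 to 6.28 CPM in mTEC hi, against 0 to 0.233 CPM in mTEC lo (5.52 ± 0.42). Of the 7, 4 passed the read filter only through mTEC hi. The 6 genes that lie together on chromosome 5 were all higher, between 2.53 and 5.52 on the log2 scale.

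Family 4 oxidises the end of fatty acid chains. In subfamilies 4a, 4b and 4x, 4 of 5 tested genes were higher in mTEC hi and Cyp4b1 did not pass. All 4 passed the read filter only through mTEC hi, which favours a higher call. Cyp4a14, a target of the fatty acid receptor Ppara in liver, had 1.63 to 3.67 CPM in mTEC hi; it had 796 reads there and 1 in mTEC lo, a ratio of 706 (exact 95% interval 126 to 27906). RSEM gave it 1.27 TPM in mTEC hi, against 0.025 TPM in mTEC lo, a ratio of 51. Subfamilies 4f and 4v, which also inactivate leukotrienes, were abundant, with 140 ± 6.76 TPM in mTEC hi and 74.4 ± 7.02 TPM in mTEC lo, 8 genes higher and 2 lower. Of the 8, 3 passed the read filter only through mTEC hi. Cyp4v3, 1 of the 8, had a log2 fold change of only 0.15 (edgeR adjusted p = 0.0415) and lost its call in 9 of 12 fits that left out 1 library (highest edgeR adjusted p 0.151) and in 1 of 2 with a replicate block (0.0532). Cyp4f16 varied least between mTEC hi libraries, with 59.0 to 63.2 CPM in mTEC hi, against 22.7 to 25.5 CPM in mTEC lo (log2 fold change 1.38 ± 0.04, edgeR adjusted p = 1.31e-14) and a coefficient of variation of 2.94% in mTEC hi. Cyp4f14 rose most, with 8.99 to 13.0 CPM in mTEC hi, against 0.0536 to 0.163 CPM in mTEC lo (6.88 ± 0.19). Cyp4f39, the counterpart of the human skin enzyme that makes very long hydroxylated fatty acids for the barrier, had 11.1 to 14.4 CPM in mTEC hi, against 2.92 to 4.50 CPM in mTEC lo (1.79 ± 0.11). The falls were smaller: Cyp4f17 had 14.2 to 16.2 CPM in mTEC hi, against 23.5 to 35.5 CPM in mTEC lo (-0.93 ± 0.08), and Cyp4f13 had 18.9 to 21.2 CPM in mTEC hi, against 24.6 to 32.2 CPM in mTEC lo (-0.49 ± 0.06). Cyp20a1, an orphan enzyme of unknown substrate, had 13.5 to 15.2 CPM in mTEC hi, against 15.5 to 19.1 CPM in mTEC lo; its log2 fold change of -0.22 ± 0.06 turned to 0.07 with library size alone as the scale.

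Neighbours in 1 gene array did not all move together. With members less than 500 kb apart counted as neighbours, 7 arrays of at least 4 genes, from families 2, 3 and 4, lay on chromosomes 4 (2 arrays), 5, 7, 15, 17 and 19. Smaller groups of neighbours were left out. Among these were Cyp11b1 with Cyp11b2, Cyp26a1 with Cyp26c1, and Cyp1a1 with Cyp1a2 and Cyp11a1, all higher in mTEC hi. Within the array on chromosome 7 (GRCm38 chr7:25802475-27158668, 13 genes), levels in mTEC hi ran from 0.055 TPM for Cyp2a22 to 388 TPM for Cyp2a5, its direct neighbour. In the array of subfamily 2d on chromosome 15 (chr15:82370527-82794294) the log2 fold changes ran from -3.48 to 3.99, and in that of subfamily 4f on chromosome 17 (chr17:32452723-32947402) from -0.93 to 6.88. In the array of subfamily 2c on chromosome 19 (chr19:39007019-40187333, 14 genes) no gene reached 10 TPM in mTEC hi, the highest being Cyp2c29 at 1.44 TPM. Sequence copies limit these comparisons: 22 of 93 members share more than 20% of their 50-base words with another gene, and 3 share more than 50%, namely Cyp2c40, Cyp2c69 and Cyp2c67.

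**Figure D3:**
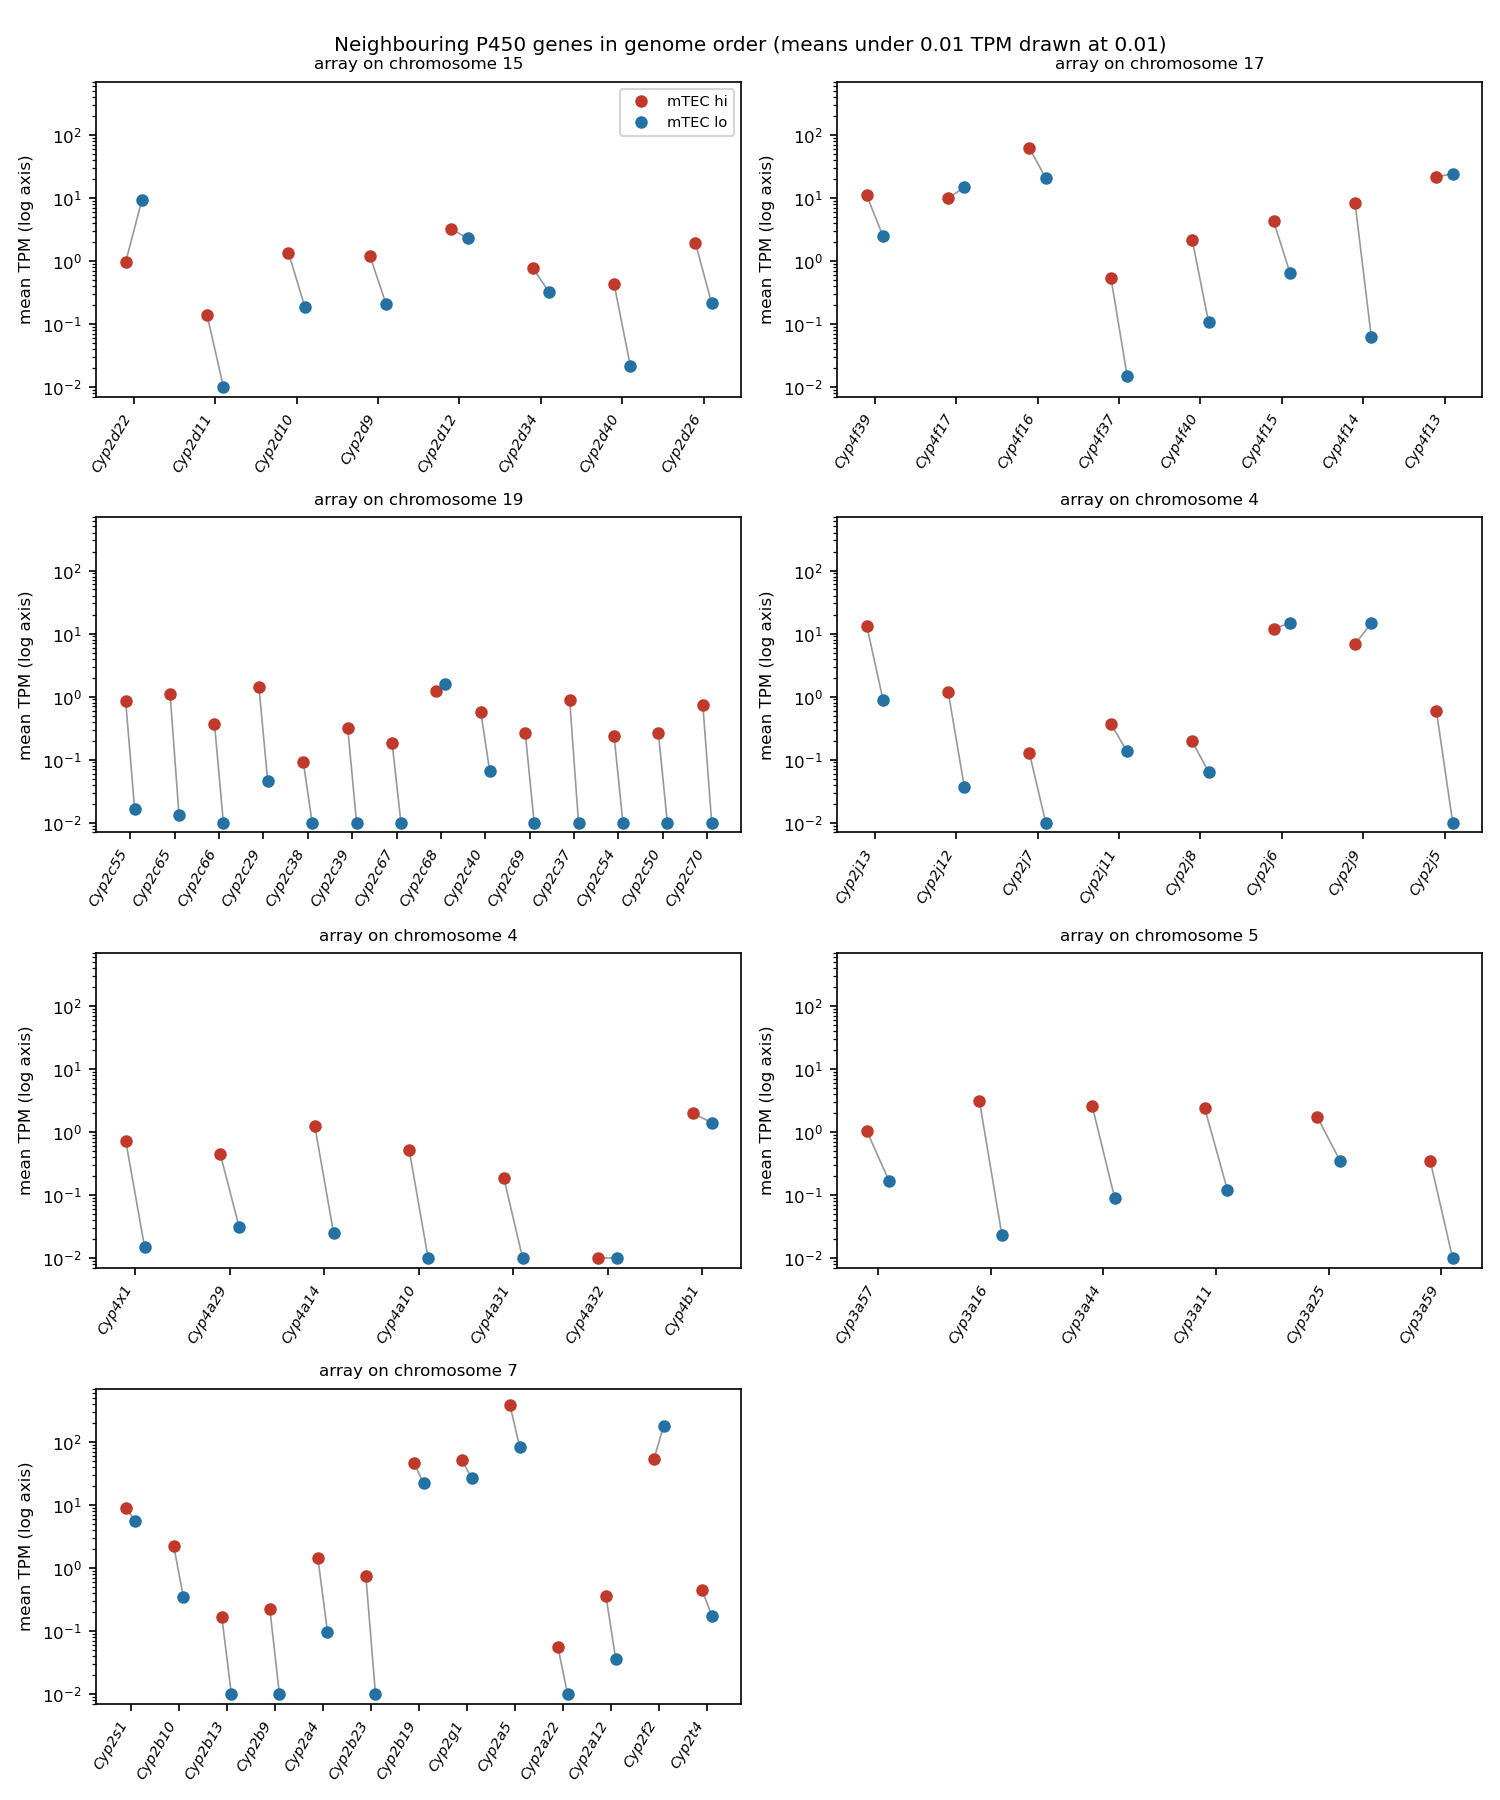
Mean TPM (log axis) of P450 genes in the 7 gene arrays, in genome order, mTEC hi in red left of mTEC lo in blue, joined by a line for each gene; means under 0.01 TPM are drawn at 0.01. Cyp2a5 (388 TPM in mTEC hi) lies beside Cyp2a22 (0.055 TPM) on chromosome 7.

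A feature of sequence that the choice of genes did not use was counted in the members. The TATA box TATAAA, searched on either strand in the 300 bases around the start, was present in 31 of 72 matched members, where 15.7% of 27025 genes held it. The TATA box was in 23 of the 51 matched members that were higher in mTEC hi and in 0 of the 7 that were lower. The share in higher members was 45.1%, near the 43.1% of all matched members. Only 7 lower members were matched, and a link with direction was not tested. The xenobiotic core GCGTG was in 15 of 72 matched members, where 35.2% of genes held it, and in 10 of 51 higher and 4 of 7 lower members. A match is a description of letters and not of binding.

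The enzymes need electrons from partner proteins, whose genes split. The list of 8 genes held electron donors and Pgrmc1, which binds P450 enzymes and is not itself a donor. Of the 8, 2 were higher in mTEC hi (Fdxr and Pgrmc1), 4 lower and 2 did not pass. With library size alone as the scale 4 were higher and 3 lower. Over all genes tested 44.2% were higher and 38% lower. Por, the reductase that serves the microsomal enzymes, had 52.1 ± 4.01 CPM in mTEC hi, against 86.6 ± 9.39 CPM in mTEC lo (log2 fold change -0.73 ± 0.07). The largest fall was that of Cyb5r3, the reductase of cytochrome b5, at -0.76 ± 0.05. Fdxr, which serves the mitochondrial enzymes such as Cyp11a1 and Cyp27a1, had 33.3 ± 2.76 CPM in mTEC hi, against 20.1 ± 1.56 CPM in mTEC lo (0.72 ± 0.06). The 3 P450 genes whose symbols fall outside the naming pattern were all higher in mTEC hi, as were 44.2% of all genes tested. Of the 3, Ptgis, prostacyclin synthase, was at 4.44 ± 0.33 and passed the read filter only through mTEC hi.

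The genotype comparison asked whether loss of Psmb11 changed the medullary cells. In mTEC hi, Psmb11 had 0.847 and 1.30 CPM in Psmb11-deficient libraries, against 10.3 and 7.54 CPM in WT libraries (log2 fold change -3.07 ± 0.31, edgeR adjusted p = 0.00457). In mTEC lo it had 1.63 and 1.17 CPM in Psmb11-deficient libraries, against 12.2 and 7.51 CPM in WT libraries (-2.81 ± 0.29, edgeR adjusted p = 0.00814). In these 8 libraries its level went with the labels. Where labels conflict, 4 libraries in all, Psmb11 was 1.12 and 1.26 CPM where the title says KO and 8.16 and 7.10 CPM where the title says WT. The call in mTEC hi was lost without Psmb11-deficient library 1 (-2.77) and without WT library 2 (-2.82).

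No P450 gene passed in either cell type with the read filter. Of 89 tested members, 0 passed edgeR's test in mTEC hi, where 0.00375% of 26642 genes did, and 0 passed in mTEC lo, where 0.015% did. At an unadjusted p under 0.05 there were 2 members in mTEC hi, or 2.25% where the share of all genes was 3.45%, and 10 in mTEC lo, or 11.2% where it was 11.3%. DESeq2 called 0 members in both, where it called 0.0113% of all genes in mTEC hi and 0.593% in mTEC lo, and 0 for the interaction, where it called 0.0338%. The interaction, the difference of the genotype effect between cell types, also gave 0 members, with 0% of all genes called and 6 members at an unadjusted p under 0.05 (6.74%, against 4.41% of all genes). With the title's genotype and all 12 libraries, edgeR called 0 members for the interaction. There 14 of 89 members had an unadjusted p under 0.05, beside 1411 of 26372 genes. With the source name's genotype 0 were called, and 4 of 89 were under 0.05, beside 1038 of 26372 genes. Without a filter on low counts, Cyp3a16 (log2 fold change 3.10, edgeR adjusted p = 0.0138) and Cyp1a2 (1.65, edgeR adjusted p = 0.0449) passed in mTEC lo, 2 of 93 members where 1.62% of all genes passed; 0 members passed in mTEC hi, where 0.103% did, and Cyp3a16 passed for the interaction (-3.32), where 0.346% of all genes did. Cyp1a2 in mTEC lo rested on 1 library: its value was 2.58 without Psmb11-deficient library 2 (edgeR adjusted p = 0.0122, with 1.13% of all genes called) and -5.27 without Psmb11-deficient library 1 (edgeR adjusted p = 0.186).

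Thymocyte markers summed higher in the undisputed Psmb11-deficient libraries of both cell types. The sum was 54.9 to 130 CPM in Psmb11-deficient mTEC hi, against 49.7 to 52.0 CPM in WT mTEC hi. In mTEC lo it was 36.1 to 55.0 CPM in Psmb11-deficient libraries, against 17.9 to 20.9 CPM in WT libraries. Conflicting library 1 has a title that says WT, with Psmb11 at 8.16 CPM (mTEC hi) and 7.10 CPM (mTEC lo). Its marker sums were 87.8 CPM (mTEC hi) and 39.1 CPM (mTEC lo). Conflicting library 3 has a title that says KO, with Psmb11 at 1.12 CPM (mTEC hi) and 1.26 CPM (mTEC lo). Its marker sums were 51.1 CPM (mTEC hi) and 25.4 CPM (mTEC lo). In both cell types conflicting library 1 lay above Psmb11-deficient library 2 (54.9 and 36.1 CPM). It lay below Psmb11-deficient library 1 (130 and 55.0 CPM). The marker Rag1 in mTEC hi had 42.0 CPM in Psmb11-deficient library 1 and 22.7 CPM in conflicting library 1. It had 12.3 CPM in Psmb11-deficient library 2, 10.9 CPM in conflicting library 3, and 10.1 and 10.7 CPM in WT libraries. In both cell types the undisputed Psmb11-deficient libraries carried title numbers 1 and 2, and the WT libraries carried 2 and 3. Number 1 thus occurred only among Psmb11-deficient libraries of the genotype comparison, and number 3 only among WT libraries. Genotype and title number therefore cannot be fully told apart within the genotype comparison. The higher marker sums are thus not assigned to genotype. Whether they go with genotype or with title number was not tested, nor was the part of these markers in the genotype values.

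The members nearest to a call were mostly rare transcripts. In mTEC hi the lowest p belonged to Cyp1b1, with 18.6 and 15.5 CPM in Psmb11-deficient libraries, against 14.2 and 13.6 CPM in WT libraries (log2 fold change 0.31 ± 0.10, edgeR adjusted p = 1). Cyp2c55 followed with 1.74 and 1.06 CPM in Psmb11-deficient libraries, against 0.594 and 0.448 CPM in WT libraries, and Cyp2b10, the gene that phenobarbital induces, with 3.40 and 2.84 CPM in Psmb11-deficient libraries, against 1.85 and 2.03 CPM in WT libraries. None of the 3 passed over all genes. In mTEC lo the lowest p belonged to Cyp3a16, with 0.233 and 0.104 CPM in Psmb11-deficient libraries, against 0 and 0.0363 CPM in WT libraries (edgeR adjusted p = 0.272). Cyp2j8 had 0.109 and 0.328 CPM in Psmb11-deficient libraries, against 0.0179 and 0 CPM in WT libraries, and Cyp2c29 had 0.124 and 0.0173 CPM in Psmb11-deficient libraries, against 0 CPM in both WT libraries. In the interaction the lowest p belonged to Cyp3a16, Cyp2c29 and Cyp26b1, at an edgeR adjusted p of 0.9998 each. Among the abundant members, Cyp2a5 had a log2 fold change of 0.05 ± 0.13 in mTEC hi and 0.11 ± 0.13 in mTEC lo between genotypes.

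**Figure D4:**
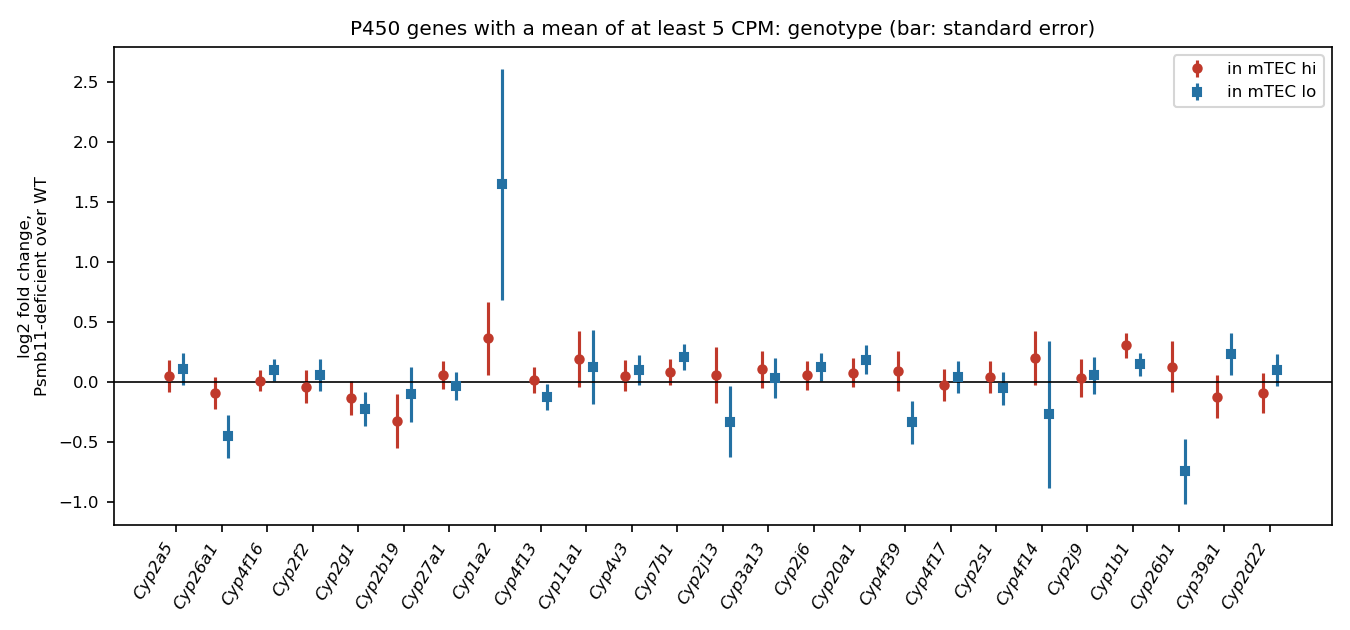
Log2 fold change of Psmb11-deficient over WT libraries, with the standard error as a bar, for the 25 P450 genes that averaged 5 CPM or more, in mTEC hi (red circles) and mTEC lo (blue squares). With the read filter no gene passed the test in either cell type; the level of Cyp1a2, which has the widest bar in mTEC lo, was at most 0.497 CPM in any mTEC lo library.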

How the data were processed

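For each of 12 libraries the authors deposited raw whole-number read counts for each gene, and the authors' RSEM table of expected counts and TPM. Per the submitters' processing notes, CASAVA 1.8.2, STAR 2.5.1b and RSEM 1.2.28 were used, with the build name GRCh38, although the gene identifiers are those of mouse; which annotation was used is not given in the sources here. The count column that ignores the strand was used, since the strand columns held near-equal shares, and RSEM totals were 0.507 to 0.535 of the read totals. Symbols and coordinates were matched by stable identifier to GENCODE M21 on GRCm38 for 50376 of 50600 identifiers, and promoters come from RefSeq on GRCm38.p6.

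Members, roles and gene lists were chosen with earlier results of these data known. Low genes were dropped by filterByExpr (minimum count 10, minimum total 15), and the rest were scaled by TMM before testing in edgeR 4.0.16 (quasi-likelihood F test, Benjamini-Hochberg adjustment, threshold 0.05) in R 4.3.3, which were also tested on simulated data. The cell type comparison used all 12 libraries and a term for genotype class. Genotypes were compared in a model of 4 groups over the 8 libraries with undisputed labels. In these 8 libraries genotype was partly confounded with title number. A standard error is that of the log2 fold change. DESeq2 1.42.0, other scalings, no filter, RSEM expected counts rounded to whole numbers, the title's or source name's genotype, replicate blocks and leaving out libraries were alternatives. Named are, per role, the largest rise and fall at 1 CPM or more, the 8 highest TPM per cell type, members without a read in 1 cell type, and the 3 lowest p between genotypes; other members named give the role's main enzymes and were chosen after their values were seen. A result for 1 partner gene is not reported here.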

Additional observations from a re-analysis of the deposited data

Results flagged for a closer look

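Of 144 groups of 6 libraries with at least 30 reads, over all 93 members and a limit chosen after seeing the data, 18 held 1 library far from the others; chance gives about 1 in 20. In mTEC hi, WT library 3 was high for Cyp4f17 (16.2 CPM, the next at 14.9) and Cyp46a1 (3.37 CPM, the next at 2.18) and low for Cyp20a1 (13.5 CPM, the next at 14.8). WT library 2 of mTEC hi was high for Cyp2c66 (0.784 CPM, the next at 0.316) and low for Cyp2j8 (0.0119 CPM), Cyp19a1 (2.76 CPM) and Cyp2d9 (0.915 CPM). Also in mTEC hi, Psmb11-deficient library 1 was high for Cyp2c39 (0.911 CPM) and low for Cyp3a57 (0.895 CPM, the next at 1.59), Psmb11-deficient library 2 was high for Cyp2a12 (1.04 CPM), and library 1 of conflicting genotype labels was high for Cyp4a14 (3.67 CPM, the next at 2.003). In mTEC lo, Psmb11-deficient library 1 was high for Cyp1a2 (0.497 CPM) and Cyp4v3 (28.02 CPM, the next at 25.6), Psmb11-deficient library 2 for Cyp2j8 (0.328 CPM) and WT library 3 for Cyp24a1 (0.272 CPM). Library 1 of conflicting labels in mTEC lo was high for Cyp2d26 (0.584 CPM) and Cyp3a11 (0.528 CPM) and low for Cyp4f40 (0.113 CPM).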

How the results depend on the processing

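The numbers of members called higher or lower between mTEC hi and mTEC lo stayed within 1.5 times of 66 and 11 under the alternatives run, except that with a minimum change of 1.5-fold 7 were lower. Leaving out 1 library at a time gave 63 to 68 higher and 11 to 12 lower; of the 77 members called, 3 (Cyp2d34, Cyp2j11 and Cyp4v3) lost the call in at least 1 such fit. For 32 named members under 24 settings, 754 values kept direction and call, 9 lost the call and 1 reversed: Cyp20a1 had 0.0717 with library size alone, and its mean TPM gave a log2 ratio of 0.0872. Without the 4 libraries of title number 1, a setting chosen after seeing the data, 66 were higher and 10 lower. Between genotypes, no filter on low counts gave 2 of 93 members in mTEC lo (1.62% of all genes) and 1 for the interaction (0.346%), and leaving out 1 library gave 0 to 1 member in mTEC lo, the 1, Cyp1a2, without Psmb11-deficient library 2; its values ran from -5.27 to 2.58 when single libraries were left out. With genotype taken from the source name, Psmb11 had -0.86 in mTEC hi and -1.10 in mTEC lo and did not pass. Members detected per library were 92.8 in mTEC hi and 65.8 in mTEC lo at 1 read, 86.5 and 45.3 at 10 reads, 89.7 and 47.2 with libraries thinned to the smallest, and 85.2 and 42.5 with RSEM expected counts. The labels give the numbers no meaning, and the deviations of same-numbered libraries correlated at 0.01 to 0.12, above 0.1 in 2 of 6 pairs and best with their own number in 3 of 6, so the libraries were not treated as paired; with the replicate block 65 members (title number) or 64 members (matching titles) were higher and 11 lower, and 0 members were called between genotypes. Depth limits the rare members: 20 of 93 had at most 3 reads over the mTEC lo libraries. The cause of these changes was not tested.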

Other observations

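The annotation also names 20 P450 pseudogenes, copies that carry the family's names with the suffix ps and make no enzyme. Of these, 19 had reads in mTEC hi and 6 had reads in mTEC lo. The 5 that could be tested were all higher in mTEC hi. All of them passed the read filter only through mTEC hi, which favours a higher call. Cyp3a63-ps had 299 reads in mTEC hi and 41 in mTEC lo, with a log2 fold change of 2.82 ± 0.44 (edgeR adjusted p = 1.38e-05), and Cyp4b1-ps2 had 86 reads in mTEC hi and none in mTEC lo. Reads that pseudogenes and their parent genes could both give were not separated.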
